A study of Mus musculus with 6 samples.

Results

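Muc5ac encodes the gel-forming mucin that surface mucous (pit) cells of the stomach secrete. The gene was followed here in antral RNA of 3 mouse strains. On the arrays used, 1 of 22690 probe sets, 1430899_at, carried the symbol Muc5ac in the platform annotation, and 0 further probe sets listed it among several symbols. All values for the gene therefore come from a single probe set. The gene was selected on its measured signal, which earlier results of these data showed to be lower in Satin than in both other strains. Its difference between Satin and the other strains is accordingly a description and was given no test. The working description of a lost mucin goes further than the data, since a signal remained on both Satin arrays.

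Stomach antrum RNA came from C57/BL6 mice (here BL6) and Beige mice, both labelled as controls, and from Satin mice, with 2 arrays per strain. The series asks how gastric cell lineages relate to FOXQ1, a forkhead transcription factor. As background, the Satin coat mutation lies in Foxq1 and the Beige coat mutation lies in Lyst. No source used here gives the genetic background, age or sex of the mice, or whether Satin mice carry the Beige allele as well. Nothing ties each array to an animal of its own, so the spread behind every p-value is that between arrays and may be technical. Median signals ran from 38.2 to 74.15 over the 6 arrays, with the Satin arrays highest, and the ratio of 5' to 3' Gapdh signal was 0.526 on BL6 replicate 1 and 0.988 to 1.18 on the others.

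Gel-forming mucins are very large secreted glycoproteins. Their long serine- and threonine-rich stretches carry dense O-linked glycans, and their cysteine-rich ends link molecules into the mucus gel. In the stomach, surface cells make MUC5AC together with the trefoil peptide TFF1, and the glands below make MUC6 together with TFF2. Muc5ac lies on chromosome 7 in a row of gel-forming mucin genes, in the order Muc6, Muc2, Muc5ac and Muc5b in the mouse gene table GRCm38.p6.

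On BL6 replicates 1 and 2 the Muc5ac signal, on the linear scale as deposited, was 7514.3 and 7502.6. The Beige arrays gave 7485.4 and 7948.7, whereas Satin gave 471.8 and 435. All 4 control arrays thus lay close together, and both Satin arrays lay far below them without overlap. The mean was 7508 ± 8.27 (SD, n = 2) for BL6, 7717 ± 328 for Beige and 453 ± 26.0 for Satin. The Satin signals amounted to 6.20% and 5.71% of the mean of both control strains, a 16.8-fold reduction on the deposited scale. The reduction was 16.6-fold against BL6 and 17.0-fold against Beige, which share the Satin arrays.

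Arrays as deposited differ in overall brightness, so signals were also compared as log2(signal + 32) after quantile normalization between arrays. On this scale the BL6 arrays stood at 13.11 and 12.66, the Beige arrays at 12.95 and 12.94, and those of Satin at 8.56 and 8.58. Strain means were 12.88 ± 0.32 (SD, n = 2), 12.94 ± 0.00 and 8.57 ± 0.01. The spread between the BL6 arrays appeared with the normalization and was absent from the deposited signals. The Satin mean differed from the mean of both controls by -4.35 (SE 0.15), from BL6 by -4.32 and from Beige by -4.38 (SE 0.18 each). Within replicate 1 arrays the Satin difference was -4.55 from BL6 and -4.39 from Beige, and within replicate 2 arrays it was -4.08 and -4.37. With signals scaled to the spiked hybridization controls instead, the reduction was 16.3-fold, and after quantile normalization it was 22.3-fold. Muc5ac was thus lower in Satin on each of these scales.

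**Figure D1:**
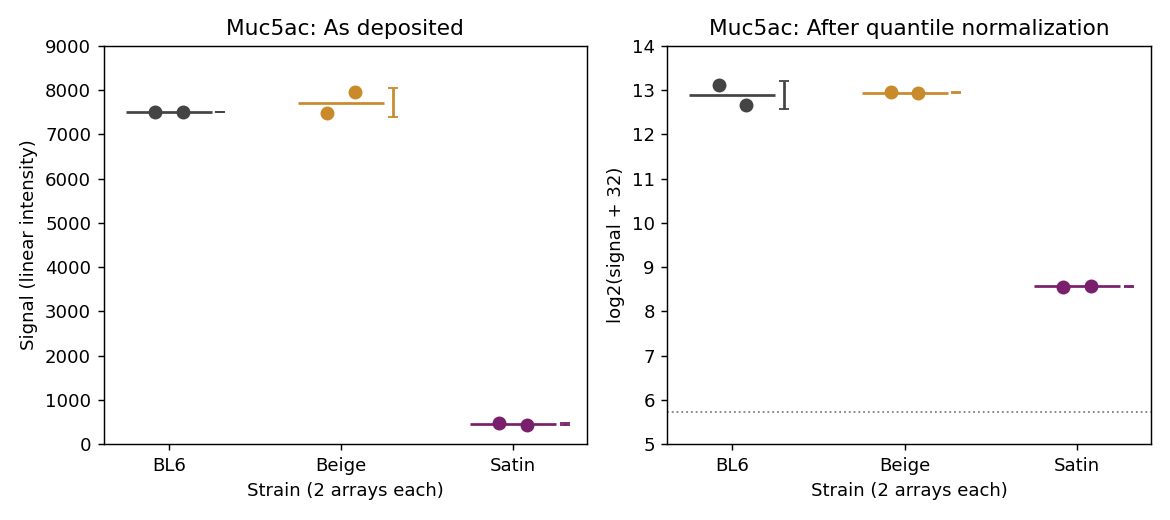
Muc5ac on each of the 6 arrays. The left panel has the deposited linear signal and the right panel log2(signal + 32) after quantile normalization, by strain on the horizontal axis. Points are arrays, horizontal lines are strain means and the bars beside them are 1 SD of the 2 arrays. The dotted line is the low-level filter at 5.736. The control arrays lie between 7485.4 and 7948.7 and the Satin arrays at 471.8 and 435, above the filter but far below the controls.

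On the control arrays Muc5ac was among the brightest signals, ranking 7 and 47 for BL6 and 19 and 20 for Beige out of 22626 probe sets. On the Satin arrays it ranked 2724 and 2687, at percentiles 87.97 and 88.13 of the array. The highest signals of the 6 arrays lay between 9413.3 and 11546.5, so the control signals lay near the highest values measured on each array. The remaining Satin level of 8.57 stayed well above the filter at 5.736, which removed the lowest 30%. No detection calls were used.

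The control strains form the comparison that played no part in choosing the gene. Beige and BL6 differed in Muc5ac by 0.06 (SE 0.18, 95% interval -0.34 to 0.46, limma adjusted p = 0.97), which is within the spread between arrays. The interval leaves room for a modest difference in either direction. The sign turned to -0.08 with median centring and to -0.17 without BL6 replicate 2, neither with a call. In this comparison limma called 0 of 9395 genes (0.00%), and 483 (5.14%) had an unadjusted p under 0.05.

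Against both controls, limma called 135 of 9395 genes (1.44%) at an adjusted p under 0.05, 41 higher (0.436%) and 94 lower (1.00%). Before adjustment, 1180 genes (12.6%) had p under 0.05. Leaving out BL6 replicate 2 gave 293 calls, and leaving out Beige replicate 1 or Beige replicate 2 gave 34 or 29. Leaving out Satin replicate 1 gave 40, and Satin replicate 2 gave 84. Ordered by the difference, Muc5ac stood 2 from the bottom, behind Fabp2 (-4.62), and the next lower gene, Cybrd1, differed by -2.82. Of the 63 genes with a control mean of at least 12, 2 differed by more than 1 log2 unit. These were Muc5ac and the gastrin gene, Gast, at -1.41 (SE 0.23, adjusted p = 0.0185). The choice of Muc5ac for its difference largely fixes its place in this order and this set. A set picked by control level also leaves out genes bright only in Satin, such as Chil4, which differed by 6.48. The Gast call was lost in 6 of 15 settings, when either Beige array (0.143 for replicate 1, 0.136 for replicate 2) or Satin replicate 1 (0.124) was left out, with median centring (0.0533), without the filter (0.0519) and without the trend (0.128).

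**Figure D2:**
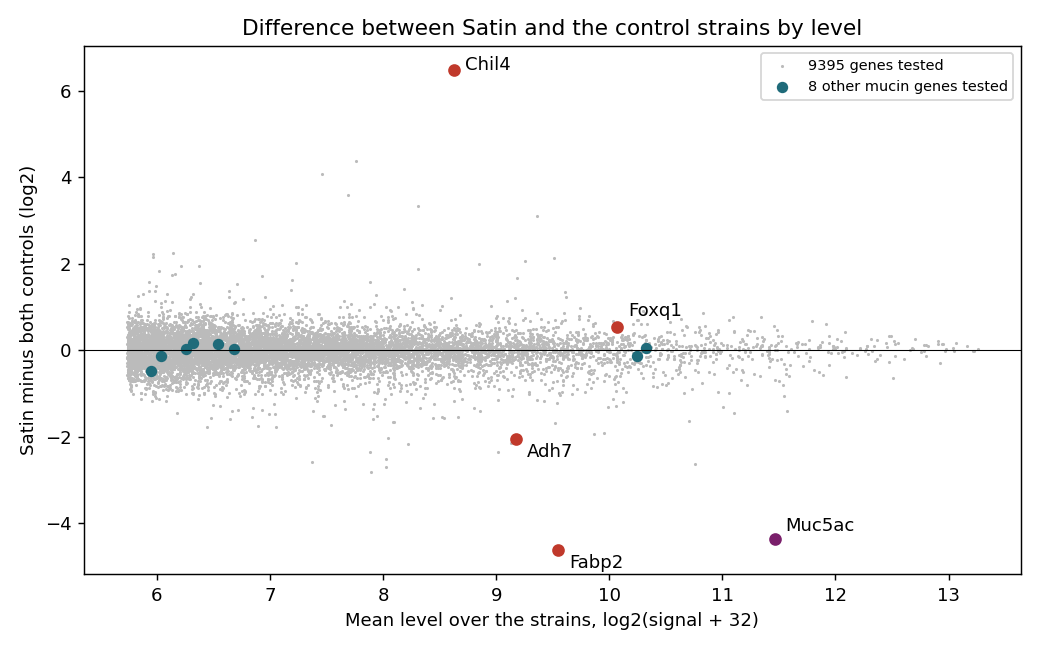
Difference between Satin and both control strains (vertical axis, log2) by mean level over the strains (horizontal axis, log2(signal + 32)) for the 9395 genes tested. Each grey point is a gene, teal points are the other mucin genes and labelled points are genes named in the text. Muc5ac sits at -4.35 at the bright end of the range, while the other mucin genes lie between -0.48 and 0.16.

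No other tested mucin gene differed by a similar amount. Of 18 further mucin genes listed, 10 had a probe set with a single symbol, 8 passed the filter and 0 were called by limma in either direction, with 0 at an unadjusted p under 0.05. Of all genes tested, 1.44% were called and 12.6% had such a p, so 0 in a list of 8 is near those shares. Their median difference was 0.02, beside 0.00 over all genes tested. Muc1, the transmembrane mucin of gastric surface epithelium, had BL6 levels of 10.19 and 10.62, Beige levels of 10.44 and 9.99, and Satin levels of 10.53 and 10.20. Its groups overlapped, with a difference of 0.06 (SE 0.19, adjusted p = 0.941). Cd164, a small sialomucin of many cell types, differed by -0.14 (SE 0.13, adjusted p = 0.755).

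The remaining tested mucins were dim, at normalized levels between 5.13 and 7.21 on the arrays. Among the transmembrane mucins, Muc3 differed by -0.48 (adjusted p = 0.671), Muc4 by 0.16 (0.896), Muc13 by 0.03 (0.98) and Muc20 by 0.15 (0.892). Emcn, the endothelial sialomucin, differed by 0.02 (0.988) and Ovgp1, the oviduct mucin, by -0.12 (0.932). A dimmer second probe set of Muc13 gave 0.68. Muc2 and Muc6, which adjoin Muc5ac on the chromosome, had no probe set with a single symbol and are not analysed here.

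Muc5b, the gel-forming mucin gene next to Muc5ac and the main mucin of the airways and salivary glands, had a higher signal in Satin but lay below the filter. Its deposited signal was 65.9 and 38.5 on the Satin arrays, against 7.1 and 5.3 for BL6 and 6.2 and 6.2 for Beige. Both Satin arrays lay above all control arrays, as was the case for 11.0% of genes tested. Without the filter the difference was 0.89 (SE 0.21, adjusted p = 0.133), which missed the threshold. Muc15, a transmembrane mucin also below the filter, differed by -0.13 (adjusted p = 0.92) in the same fit.

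The neighbouring genes on chromosome 7 were measured as well. Of the 10 protein-coding genes on each side of Muc5ac, 11 were on the array and 10 passed the filter. Limma called 0 of them and 0 had an unadjusted p under 0.05, beside 1.44% and 12.6% of all genes. Differences ran from -0.25 to 0.33 with a median of -0.05. Tollip, an adaptor of Toll-like receptor signalling and the nearest neighbour that was tested, had BL6 levels of 8.10 and 8.11, Beige levels of 7.85 and 7.67, and Satin levels of 7.75 and 7.62. Satin and Beige overlapped there, and the difference was -0.25 (SE 0.16, adjusted p = 0.598). On the other side, Ap2a2, a clathrin adaptor subunit, differed by 0.23 (adjusted p = 0.709) and Chid1, a chitinase domain protein, by -0.09 (0.891). Cd151 and Tspan4, which encode tetraspanins, differed by -0.25 (0.696) and -0.05 (0.965). The values of Rplp2, a ribosomal protein gene, were 0.33 (0.485), and of Pnpla2, a triglyceride lipase gene, 0.29 (0.644). Cracr2b, a calcium channel regulator, Mob2, a kinase adaptor, and Dusp8, a phosphatase, differed by -0.09, -0.05 and -0.05 (0.925, 0.954 and 0.972). No tested neighbour took a step of the size at Muc5ac. Since Muc5ac was chosen for its difference and only Fabp2 fell further among all genes tested, almost any list of 10 would lack such a step. Muc2 and Muc6 had no probe set with a single symbol, and Muc5b lay below the filter.

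Mucins are glycosylated in the Golgi in steps. GALNT enzymes attach the first sugar, and other transferases extend, branch and cap the chain. Of 18 GALNT-family genes listed, 9 were tested, with a median of 0.17. Limma called 0 of the 9 and 1 had an unadjusted p under 0.05, near the 1.44% and 12.6% of all genes. Galnt1 had the smallest p, at 0.46 (SE 0.17, adjusted p = 0.287), and a dimmer probe set of it gave -0.14. Galnt11 followed at 0.44 (SE 0.21, adjusted p = 0.445). Both Satin arrays of Galnt11 lay above all controls, as for 11.0% of all genes tested, while those of Galnt1 overlapped BL6 replicate 1.

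Of 41 extension and capping genes, 25 were tested and 0 were called by limma, beside 1.44% of all genes, with a median of 0.07. At an unadjusted p under 0.05, 1 was lower and 2 higher, which is near the 12.6% of all genes in either direction. Gal3st1, a sulfotransferase best known from sulfatide synthesis, had BL6 levels of 9.63 and 9.80, Beige levels of 10.08 and 9.75, and Satin levels of 9.04 and 9.22. Both Satin arrays lay below all controls, yet its difference of -0.68 (SE 0.15) missed the threshold at an adjusted p = 0.0698. St3gal6, a sialyltransferase, differed by 0.66 (SE 0.18, adjusted p = 0.129), with both Satin arrays above all controls. Of the 25 genes, 2 had both Satin arrays below all controls and 4 had both above, beside 12.7% and 11.0% of all genes tested. For C1galt1, which makes the core structure that most extended chains build on, the brighter probe set gave 0.08 (adjusted p = 0.919) and the other, at a mean level of 8.60 beside 8.90, gave -1.58. The direction for C1galt1 is therefore uncertain.

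Folding and packaging genes came next along the secretory route. Of 26 genes for mucin folding and for proteins secreted with mucins, 22 were tested and 0 were called by limma, beside 1.44% of all genes, with a median of -0.23. At an unadjusted p under 0.05, 8 were lower and 2 higher, beside 12.6% of all genes in either direction. Of the 8, 3 are intestinal goblet cell genes that were low on Satin replicate 1 alone. Zg16, a lectin of goblet cell granules, was 6.55 there and 11.46 on Satin replicate 2, Fcgbp, a mucus protein, 6.74 and 10.42, and Clca1, a secreted metalloprotease, 8.69 and 11.58. The smallest p belonged to Pdia5, a protein disulfide isomerase, at -0.66 (SE 0.22, adjusted p = 0.23), and Creb3l1, a membrane-bound transcription factor of secretory cells, at 0.44 (SE 0.15, adjusted p = 0.254). Without Satin replicate 2, these goblet genes, Zg16, Fcgbp and Clca1, were the 3 members that passed the test. Agr2, a disulfide isomerase needed for mucin assembly, differed by -0.35 (SE 0.13, adjusted p = 0.288), and a dimmer probe set of it gave 0.53.

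Granule exocytosis genes had 1 call, lower in Satin, beside 1.00% of all genes called lower. Of 24 listed, 19 were tested and Sytl2, which encodes a synaptotagmin-like partner of RAB27 on secretory granules, fell by 0.74 (SE 0.14, adjusted p = 0.0329). The normalized BL6 levels were 9.81 and 9.68, those of Beige 9.84 and 9.67, and those of Satin 9.0 and 9.01, without overlap. The deposited signals did overlap, at 655.9 and 605 in Satin, 680.9 and 639.5 in BL6, and 744.2 and 875.8 in Beige. The call was lost in 8 of 15 other settings, among them all 3 other scalings, when either Beige array was left out (0.186 for replicate 1, 0.131 for replicate 2) and when either Satin array was (0.31 and 0.18). In 7 of the 19 genes both Satin arrays lay below all 4 controls, beside 12.7% of all genes tested. The call was kept without either BL6 array, and without BL6 replicate 2 the list had 2 calls, both lower. The list median was -0.23 and turned to 0.19 as deposited and 0.24 with the hybridization controls, where all genes together had medians of 0.43 and 0.47. Smooth muscle genes, which moved in the same direction, are given below, and their part in these values was not tested.

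Regulators that act on mucin genes or gastric epithelium numbered 31, of which 26 were tested and 0 were called by limma, beside 1.44% of all genes, with a median of 0.10. At an unadjusted p under 0.05, 2 were lower and 7 higher, beside 12.6% of all genes in either direction. Both Satin arrays lay above all 4 controls for 9 of the 26 and below them for 2, beside 11.0% and 12.7% of all genes tested. The smallest p belonged to Sox21, a SOX transcription factor of gastric epithelium, at 0.84 (SE 0.18, adjusted p = 0.0643), and Foxa1, a forkhead pioneer factor, at 0.64 (SE 0.15, adjusted p = 0.0732). Without BL6 replicate 1, and also without BL6 replicate 2, the list had 2 calls, 1 higher and 1 lower. Foxq1 itself was not lower in Satin, at 10.46 and 10.41 there, 10.13 and 10.17 in BL6, and 9.88 and 9.38 in Beige. Its difference was 0.55 (SE 0.16, adjusted p = 0.166), and it passed the test as deposited and with the hybridization controls, where the median of all genes was also above 0. Lyst differed by -0.68 (SE 0.30, adjusted p = 0.401) near the filter.

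Signalling through the EGF receptor is a known inducer of MUC5AC in airway cells. Of 15 genes for its ligands, receptors and modulators, 11 were tested and 0 were called by limma, beside 1.44% of all genes, with a median of -0.03. At an unadjusted p under 0.05, 0 were lower and 1 higher, which is near the 12.6% of all genes in either direction. Lrig1, a receptor inhibitor and stem cell marker, differed by 0.60 (SE 0.18, adjusted p = 0.169), and Ereg, a ligand, by 0.68 (SE 0.38, adjusted p = 0.528). Egfr differed by -0.18 (SE 0.18, adjusted p = 0.757).

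**Figure D3:**
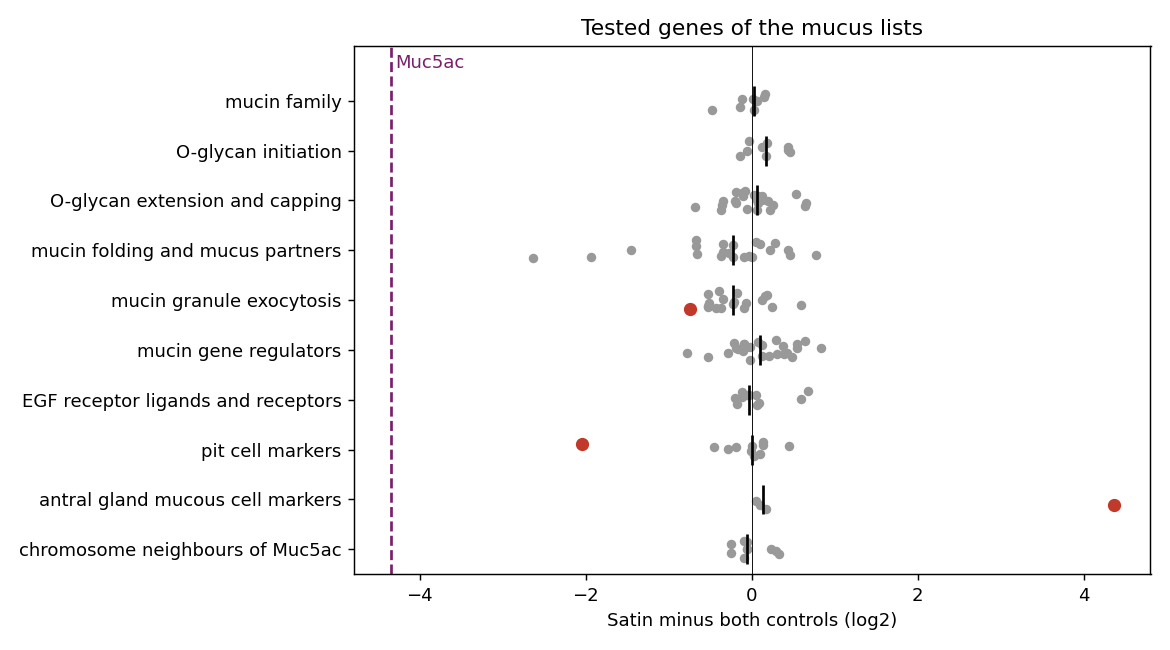
Differences between Satin and both controls (horizontal axis, log2) for the tested genes of 10 lists. Each point is a gene, red points passed limma's adjusted p under 0.05, black bars are list medians and the dashed line marks Muc5ac at -4.35. List medians lie between -0.23 and 0.17, and the red points are Sytl2, Adh7 and Bpifb1.

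In whole antral RNA, fewer cells of a type and less RNA per cell cannot be told apart, so markers of the cells that make Muc5ac were set beside it. Of 14 other pit cell markers, 11 were tested, and limma called 1 lower and 0 higher, beside 1.00% and 0.436% of all genes. Their median was 0.01. This list median became -0.25 with median centring, where that of all genes was 0.10. It was 0.08 as deposited and 0.13 with the hybridization controls, where all genes had medians of 0.43 and 0.47. The pit list thus lay below the median of all genes in each of these other scalings. Adh7, a retinol and ethanol dehydrogenase, fell to 8.11 and 7.52 in Satin from a lowest control level of 9.60, a difference of -2.04 (SE 0.20, adjusted p = 0.00124). A dimmer probe set of Adh7 gave -0.81. For Ctse, another pit cell marker, a dimmer probe set gave 2.50 beside 0.14 for the brighter one. The gastrokine genes Gkn1 and Gkn2 and the trefoil gene Tff1, all near the top of the range, differed by -0.01, 0.03 and 0.10 (adjusted p = 0.983, 0.962 and 0.829). The calpain genes Capn9 and Capn8 and the surface antigen gene Psca differed by -0.45, -0.28 and -0.19 (adjusted p = 0.2, 0.588 and 0.73), and both Satin arrays lay below all controls for Capn9. Cldn18, a tight junction gene, differed by 0.45 (adjusted p = 0.145), and both its Satin arrays lay above all controls. Of the 11 markers, 2 had both Satin arrays below all controls and 1 had both above, beside 12.7% and 11.0% of all genes tested. The summed normalized signal of the 11 measured markers ran from 52113 to 57901 on the control arrays and was 58266 and 54269 in Satin, so the groups overlapped. That sum is carried by the brightest members, which lie near the highest values on every array, and hardly registers dimmer ones such as Adh7 and Capn9.

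Antral gland mucous cells, the neighbouring mucus-making type, had 4 of 6 markers tested, and limma called 1 higher, beside 0.436% of all genes. Bpifb1, a secreted bactericidal/permeability-increasing-like protein, rose by 4.37 (SE 0.46, adjusted p = 0.00229), from 6.0 to 6.86 over the controls to 11.70 and 9.64 in Satin. The median of the 4 was 0.14, and Tff2 and the pepsinogen gene Pgc differed by 0.05 and 0.17 (adjusted p = 0.919 and 0.685).

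Markers of other cell types were summed in the same way. General glandular epithelium markers, 10 of 10 measured, summed to 18891 to 21571 in the controls and to 20665 and 21257 in Satin. Limma called 1 of them higher, beside 0.436% of all genes. This was the claudin gene Cldn3, at 4.07 (SE 0.48, adjusted p = 0.00417), and its other probe sets gave 3.05 to 4.03. The sum is carried by brighter members and hardly registers it. Smooth muscle markers, 12 of 12 measured, summed to 13584 to 20100 in the controls and to 9489 and 10641 in Satin. For 10 of them both Satin arrays lay below all 4 controls, beside 12.7% of all genes tested. Limma called 4 lower, beside 1.00% of all genes. That count was 9 without BL6 replicate 2, 2 without Satin replicate 2, and 0 without either Beige array or without Satin replicate 1. It was 0 without the trend and 1 when probe sets of a gene were averaged or under any of the 3 other scalings. Enteroendocrine markers, 10 of 10 measured, summed to 8620 to 10351 in the controls and to 4450 and 4581 in Satin. That sum is carried by bright members such as Gast, at a control mean of 12.04 and a Satin mean of 10.63, and hardly registers dim ones. All 10 markers differed downward, with a median of -0.56. For 4 of them both Satin arrays lay below all controls, beside the same 12.7%. Limma called 3 lower, beside the same 1.00%. That count was 2 without BL6 replicate 1 or Satin replicate 2, 1 without Beige replicate 2, and 0 without Beige replicate 1 or Satin replicate 1. It was 1 without the filter and 0 without the trend. Parietal cell markers, 8 of 8 measured, summed to 17877 to 21935 in the controls and to 29264 and 19318 in Satin, and squamous markers, 12 of 12 measured, to 225 to 940 in the controls and 595 and 625 in Satin. Both the muscle and the endocrine lists were lower on the arrays on which Muc5ac was low, and the part of muscle or endocrine content in the Muc5ac difference was not tested.

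Markers of pancreas and intestine differed between arrays of one strain. Pancreatic acinar markers, 8 of 11 measured, summed to 12065 and 64365 for BL6, 12083 and 18076 for Beige, and 11080 and 39332 for Satin. Intestinal goblet cell markers, 7 of 8 measured, summed to 7816 and 12556 for BL6, 9028 and 7540 for Beige, and 1052 and 9118 for Satin. On the same Satin arrays Muc5ac was 8.56 and 8.58, and on the BL6 arrays 13.11 and 12.66, the lower value being on the array with the highest pancreatic sum. The part of these tissues in the Muc5ac values was not tested. Intestinal enterocyte markers, 8 of 10 measured, summed to 4968 to 6227 in the controls and to 2798 and 2296 in Satin. Much of that fall was in Fabp2 alone, at 10.70 to 11.34 in the controls and at 6.28 and 6.65 in Satin. Of the 8 markers, 6 differed downward and 2 upward, Fabp1 by 0.76 (limma adjusted p = 0.567) and Apoa4 by 0.84 (0.509). Limma called 2 lower, beside 1.00% of all genes, Fabp2 and the retinol carrier gene Rbp2 (-1.16, adjusted p = 0.0472). Rbp2 was lost in 10 of 15 settings, among them all 3 other scalings (0.0718, 0.0579 and 0.169) and either Beige array (0.222 and 0.189) or Satin replicate 1 (0.441) left out. Some pancreatic markers lay below the filter level of 5.736 on replicate 1 arrays. Ctrb1 was at 5.08 for BL6 and 5.07 for Satin there, though at 6.18 for Beige. Cpa1 was at 5.14 for BL6, 5.09 for Beige and 5.34 for Satin. On replicate 2 arrays Ctrb1 was at 12.96, 10.17 and 12.73 for BL6, Beige and Satin. Clps lay near the top of the range on every array, at 13.21 on BL6 replicate 1. The lower pancreatic sums are thus carried by bright members such as Clps.

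**Figure D4:**
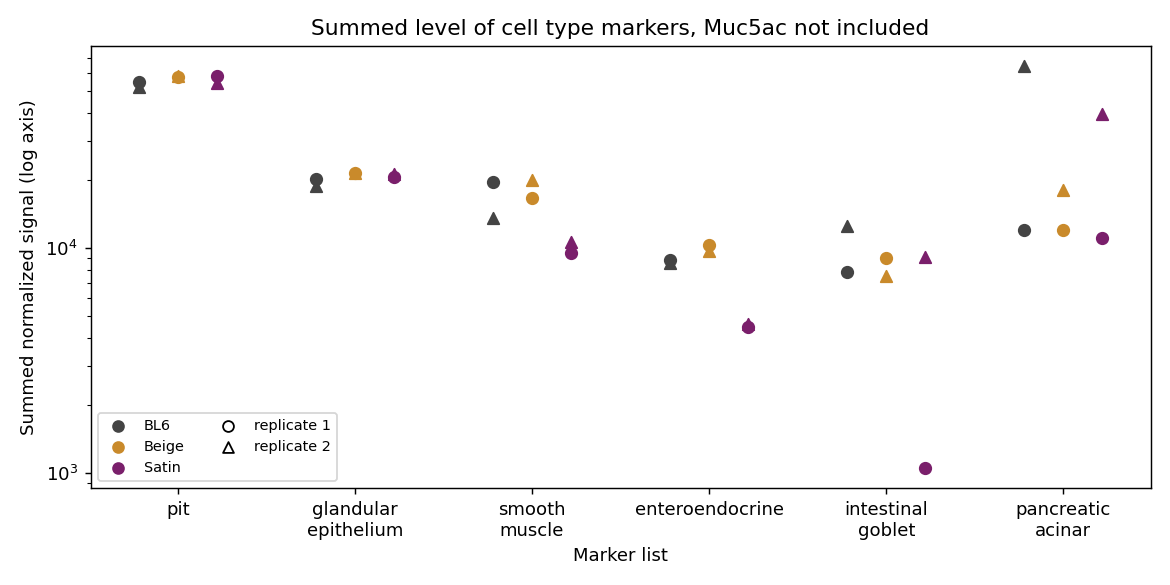
Summed normalized signal (vertical log axis) of cell type markers on each array, by list on the horizontal axis, without Muc5ac. Colours are strains, circles are replicate 1 and triangles replicate 2. Pit cell sums overlap between strains (52113 to 58266), smooth muscle and enteroendocrine sums are lower in Satin, and goblet and pancreatic sums differ widely between arrays of one strain.

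Genes with the most similar pattern were found by Pearson's r with Muc5ac over the 6 arrays, among 2744 other tested genes whose range was at least 1 log2 unit. Because the arrays fall into Satin and controls, any gene with a clean step between them gives a high r, and 62 genes reached 0.95. The 10 highest were Ncmap (r = 0.999), Fabp2 (0.998), Epb41l4b (0.996), Tmem189 (0.996), Kctd14 (0.991), C1qtnf12 (0.989), Smim10l1 (0.988), Oit1 (0.986), Pf4 (0.985) and 2210409E12Rik (0.984). All 10 were lower in Satin by the choice of the measure. In limma 9 of them had an adjusted p under 0.05, beside 1.44% of all genes, which the choice largely fixes as well.

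Fabp2, an intracellular fatty acid carrier best known from enterocytes, followed Muc5ac most closely in size too. Its deposited signal was 65 and 79.7 on the Satin arrays, against 1927.7 and 1394.1 for BL6 and 2142.3 and 2409.6 for Beige. After each gene was centred on its mean, the root mean square distance between Fabp2 and Muc5ac was 0.18 log2 units, and the next genes were far behind. These were Cybrd1, a ferric reductase (distance 0.77), Rpgrip1, a ciliary protein (0.82), the kinase gene Stk25 (0.90) and Slurp1, a secreted Ly6 protein (0.96). The dimmer probe sets of Rpgrip1 gave -0.42, -0.22 and -0.09, and its call was lost with the mean of probe sets (0.174), while that of Slurp1 was lost without Beige replicate 2 (0.0507).

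The other genes of high r took smaller steps. Ncmap, a myelin membrane protein gene, lay between 8.03 and 8.19 in the controls and at 6.33 and 6.44 in Satin (-1.73, SE 0.17, adjusted p = 0.00124). C1qtnf12, a secreted C1q-related protein gene, differed by -2.35 (adjusted p = 0.00034), and its other probe sets gave -1.98, -1.07 and -0.97. Oit1 differed by -1.68 (adjusted p = 0.000636), and the calls of Ncmap, Fabp2, C1qtnf12 and Oit1 held in each of the 15 other settings. Kctd14, of the potassium channel tetramerization domain family, differed by -1.47 (adjusted p = 0.00758) and was lost without Beige replicate 2 (0.0555) or Satin replicate 1 (0.0975).

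Steps near 1 log2 unit were less stable. Epb41l4b, a FERM domain protein gene, differed by -1.04 (adjusted p = 0.00575), and was lost in 8 of 15 settings, among them with either Beige array left out (0.064 and 0.0555) or Satin replicate 1 left out (0.0719). Tmem189, a lipid desaturase gene, differed by -1.14 (adjusted p = 0.00417), and was lost in 7 settings, among them without Beige replicate 2 (0.0545) or Satin replicate 1 (0.0601). Smim10l1 differed by -1.12 (adjusted p = 0.0103), and was lost in 8, among them with either Beige array left out (0.0648 and 0.0671) or Satin replicate 1 left out (0.143). Pf4, the platelet factor chemokine, differed by -1.06 (adjusted p = 0.0205), and was lost in 8, among them without either Beige array (0.118 and 0.101) or either Satin array (0.139 and 0.15). Dimmer probe sets gave 0.15 for Epb41l4b, 0.01 for Smim10l1, -0.89 and -0.09 for Tmem189 and -0.74 for Kctd14.

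**Figure D5:**
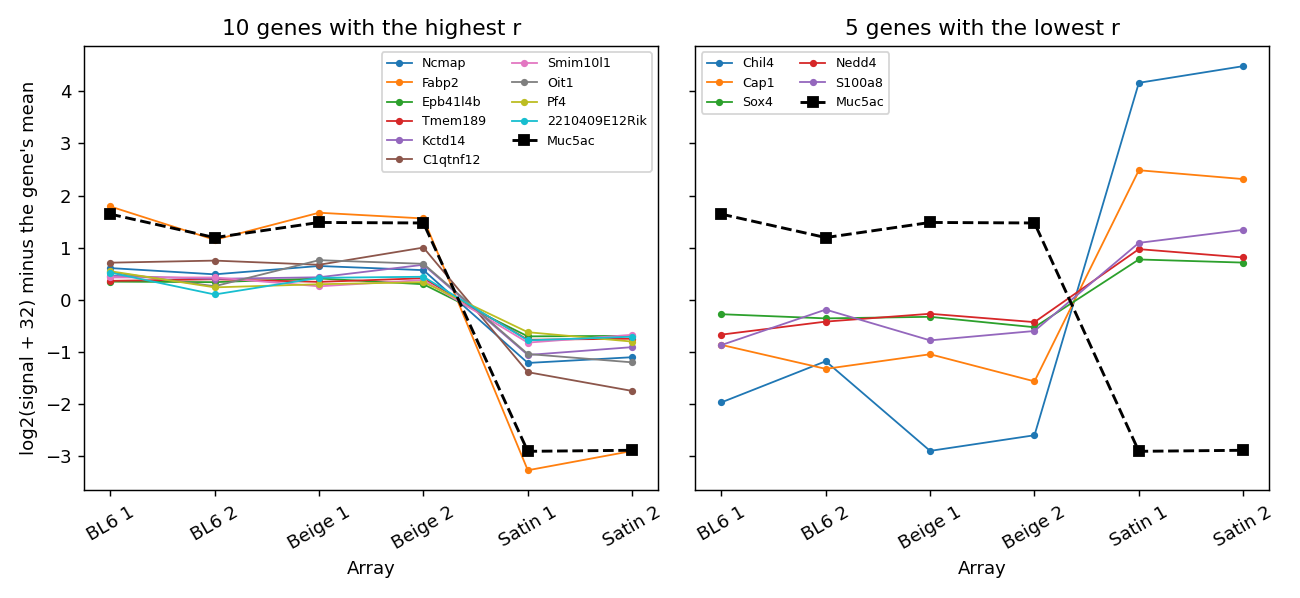
Level of each gene minus its mean over the arrays (vertical axis, log2(signal + 32)) on the 6 arrays (horizontal axis), for the 10 genes with the highest r to Muc5ac (left) and the 5 with the lowest (right). The dashed black line is Muc5ac. Fabp2 overlies Muc5ac at a distance of 0.18, the other high-r genes take a smaller step, and Chil4 takes a larger step in the opposite direction.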

How the data were processed

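Per the labels' protocols, Trizol was used to extract total RNA, from which biotinylated cRNA was made. The authors deposited a linear intensity for each probe set on each array. No source used here says how probes were summarised or scaled, and the number of arrays limits the precision. Of the sample columns 0 were left unused. Muc5ac and all lists were chosen with earlier results of these data known. After log2(signal + 32), arrays were quantile normalized over all probe sets, and 64 control probe sets were then left out. Each gene was represented by its probe set of highest mean, which gave 12393 genes. Those below 5.736, the lowest 30% of probe sets, were left out, and 9395 were tested in limma 3.58.1 (R 4.3.3; lmFit, then eBayes with trend, two-sided, strain as the only factor, Benjamini-Hochberg adjustment over all 9395). Gene names come from the platform annotation, and 20351 of 20380 single-symbol probe sets were found by gene ID in a GRCm38.p6 gene table, used for names, chromosome and gene order only. By the rule for named genes, the text names every measured mucin and neighbour, up to 4 called genes per direction of each pathway and pit cell list or else the 2 with the smallest p, and the genes most and least like Muc5ac. Lists of other cell types are given by their sums and counts. Gast, Bpifb1, Rbp2, Agr2, C1galt1, Egfr, Zg16, Fcgbp, Clca1, Capn8, Capn9, Psca, Cldn18, Gkn1, Gkn2, Tff1, Tff2 and Pgc were named after their values were seen. The same holds for Cldn3, Ctse, Fabp1, Apoa4, Ctrb1, Cpa1 and Clps.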

Additional observations from a re-analysis of the deposited data

How the results depend on the processing

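Muc5ac was lower in Satin in every setting run. Its difference from both controls was -3.98 as deposited, -3.93 with the hybridization controls and -4.12 with a pseudocount of 100. In the same order it was -3.96, -3.84 and -4.09 against BL6, and -4.00, -4.02 and -4.15 against Beige. With 1 array left out, the difference from BL6 lay between -4.43 and -4.08. Relative to the median of all genes, the difference from both controls was -4.41 as deposited and -4.39 with the hybridization controls. The number of genes called was 1531 as deposited (1469 higher, 62 lower), 2271 with the hybridization controls (2210 higher, 61 lower), 36 without the trend and 29 to 293 with 1 array left out. With median centring it was 46 higher and 46 lower. As deposited, the calls were 3 for O-glycan initiation, 3 for extension, 6 for folding, 4 for exocytosis, 10 for regulators, 2 for EGF receptor genes, 2 for pit markers and 3 for neighbours. With the hybridization controls they were 1 for the mucin family, 4, 7, 6, 5, 11 and 3 for the lists in the same order, then 3 for pit markers and 3 for neighbours. In both settings these calls were higher in Satin, apart from 1 lower in folding and 1 lower in pit markers. The exocytosis list thus went from 1 lower call to 4 and 5 higher calls. All genes together had medians of 0.43 and 0.47 in these settings. Exocytosis had 0 with median centring and 0 without the trend, and pit markers had 2 with the mean of probe sets, 1 higher and 1 lower. With 1 array left out, folding had 0 to 3, exocytosis 0 to 2 and regulators 0 to 2. The cause of these changes was not tested. With the replicate number as a block, Muc5ac differed by -4.35, 123 genes were called, and neither a Muc5ac value nor a count of the mucin, pathway, pit or neighbour lists changed, while smooth muscle calls went from 4 to 3 and enteroendocrine calls from 3 to 4. Deviations of same-numbered arrays correlated at 0.118, 0.272 and 0.189, and nothing in the labels pairs them. The fit of only the strains compared was run for Beige against BL6 alone, since the other comparison uses all arrays. The number of arrays, 2 per strain, and signals near the top of the range limit what can be resolved.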

Other observations

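The genes whose pattern ran most opposite to Muc5ac over the 6 arrays were Chil4, Cap1, Sox4, Nedd4 and S100a8, with r from -0.989 to -0.980. As with the genes of high r, the choice favours a clean step between Satin and controls. It therefore largely fixes their calls, which are given as description. Chil4, a chitinase-like lectin, lay between 5.73 and 7.45 in the controls and at 12.79 and 13.11 in Satin, a difference of 6.48 (SE 0.23, limma adjusted p = 1.26e-06). Cap1, an actin regulator, differed by 3.60 (SE 0.22, adjusted p = 7.72e-05), and a second probe set gave 3.55. Both were called in each of 15 other settings. Sox4, a SOX transcription factor, differed by 1.11 (adjusted p = 0.00913), and its 5 other probe sets gave 0.27 to 0.83. Its call was lost in 6 settings, among them with either Beige array left out (0.0558 and 0.0671) or either Satin array left out (0.135 and 0.062). S100a8, a neutrophil calcium binding protein, was low in the controls (5.15 to 5.83, around the filter at 5.736) and passed the filter through its Satin levels of 7.11 and 7.36. Its difference of 1.83 (adjusted p = 0.022) therefore comes from a gene that had to differ, and the call was lost in 5, with a pseudocount of 8 (0.059) and with either Beige array (0.109 and 0.0827) or either Satin array (0.194 and 0.227) left out. Nedd4, a ubiquitin ligase, differed by 1.34 (adjusted p = 0.00252), while 2 other probe sets gave -0.04 and 0.29. Without Satin replicate 1 or 2, when the rule of the brightest probe set picked another one, the value was -0.17 or 0.09, and with the mean of probe sets it was 0.53 (0.135).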
